A study of Mus musculus with 4 samples.

Results

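Keratins are the structural proteins that build the intermediate filaments of epithelial cells, hair and nails, and keratin-associated proteins are the small matrix proteins that embed them in the hair shaft. The mouse genes of both families were examined in DNA methylation data from hippocampal microglia, immune cells that live in brain tissue, a cell type outside the epithelia in which these genes are used. Members were all autosomal protein-coding genes named Krt followed by a number or starting with Krtap. There were 109 of them among 20661 autosomal protein-coding genes in RefSeq's annotation of GRCm38.p6 (mm10), with 53 keratin (Krt) and 56 keratin-associated (Krtap) genes. Each gene span was extended by 1 kb on both sides. A span was measured when every library listed at least 3 CpGs in it, which left 98 members, all 53 Krt and 45 of 56 Krtap genes, of 19868 genes in all. The rule used no methylation level.

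The series held 4 libraries of whole-genome bisulfite sequencing, 2 labelled control and 2 labelled FGR, which the series title ties to growth restriction in the uterus. All 4 came from mice of the genotype Tmem119-tdTomato+/-, which puts a red fluorescent protein under a microglial gene, at 3 weeks postpartum, so the controls carried the reporter too. The labels do not say how growth was restricted, how the microglia were isolated, which sex the mice had, or whether a library was 1 animal or a pool, so every test measured only the spread between these libraries. The comparison asked how the FGR state relates to microglial DNA methylation.

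Type I (acidic) and type II (basic) keratins pair as obligate heteropolymers, and each epithelium uses its own pairs. Krt8 with Krt18 serves simple epithelia, Krt5 with Krt14 the basal layer of the epidermis and Krt1 with Krt10 its upper layers, while a further set builds the hair shaft and the inner root sheath around it. The genes sit in tandem clusters, type I on mouse chromosome 11, type II on chromosome 15, with Krt18, a type I gene, at the edge of the type II cluster. Methylation of CpG dinucleotides near a gene start usually accompanies a silent promoter, mainly where CpGs are dense, whereas CpG-poor promoters are often methylated whether or not the gene is used.

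Promoter sequences of 300 bases, 250 before and 50 after the start, from RefSeq for GRCm38.p6, matched 87 of the 109 members, with 88 promoters since Krt13 has 2 starts. The bases before the start are printed 5′ to 3′ on the strand of the gene with each CpG in capitals, because the CpGs are the positions at which methylation was read. The first 3 belong to simple epithelial keratins, which carry the most CpGs or the largest difference in this family: Krt8 (chr15:102004343-102004592, minus strand), Krt18 (chr15:102027966-102028215, plus strand) and Krt7 (chr15:101412153-101412402, plus strand).
Krt8: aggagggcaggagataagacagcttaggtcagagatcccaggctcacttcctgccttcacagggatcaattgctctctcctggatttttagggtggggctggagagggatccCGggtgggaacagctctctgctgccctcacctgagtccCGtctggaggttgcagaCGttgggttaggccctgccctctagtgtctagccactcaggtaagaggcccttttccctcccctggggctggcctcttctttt
Krt18: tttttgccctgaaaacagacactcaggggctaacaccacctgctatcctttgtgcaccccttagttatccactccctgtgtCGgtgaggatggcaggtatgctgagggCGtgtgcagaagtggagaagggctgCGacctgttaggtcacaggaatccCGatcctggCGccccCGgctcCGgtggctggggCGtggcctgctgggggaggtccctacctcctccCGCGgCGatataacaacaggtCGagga
Krt7: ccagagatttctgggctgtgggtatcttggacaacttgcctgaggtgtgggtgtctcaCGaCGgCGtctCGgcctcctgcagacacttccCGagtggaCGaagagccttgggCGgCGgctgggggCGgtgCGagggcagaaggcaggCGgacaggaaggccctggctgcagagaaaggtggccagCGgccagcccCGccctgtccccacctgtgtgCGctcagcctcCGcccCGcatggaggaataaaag
The next 2 are CpG-poor promoters of epidermal keratins, Krt10 (chr11:99389365-99389614, minus strand) and Krt77 (chr15:101869706-101869955, minus strand).
Krt10: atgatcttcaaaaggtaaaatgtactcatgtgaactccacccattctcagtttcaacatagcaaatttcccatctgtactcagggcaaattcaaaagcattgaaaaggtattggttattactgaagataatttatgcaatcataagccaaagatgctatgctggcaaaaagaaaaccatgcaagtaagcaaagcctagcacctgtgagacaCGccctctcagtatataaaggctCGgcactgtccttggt
Krt77: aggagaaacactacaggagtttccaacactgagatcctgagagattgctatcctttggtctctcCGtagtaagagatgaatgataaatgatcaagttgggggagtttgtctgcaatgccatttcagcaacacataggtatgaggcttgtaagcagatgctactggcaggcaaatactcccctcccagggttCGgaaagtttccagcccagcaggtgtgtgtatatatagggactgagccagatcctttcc
The last 3 belong to keratin-associated genes, Krtap1-4 (chr11:99583678-99583927, minus strand), Krtap24-1 (chr16:88612280-88612529, minus strand) and Krtap8-1 (chr16:89487953-89488202, minus strand).
Krtap1-4: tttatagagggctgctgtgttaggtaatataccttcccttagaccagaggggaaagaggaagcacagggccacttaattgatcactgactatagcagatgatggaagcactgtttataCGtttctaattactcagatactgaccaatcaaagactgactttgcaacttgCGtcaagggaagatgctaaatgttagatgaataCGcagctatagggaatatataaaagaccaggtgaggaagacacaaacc
Krtap24-1: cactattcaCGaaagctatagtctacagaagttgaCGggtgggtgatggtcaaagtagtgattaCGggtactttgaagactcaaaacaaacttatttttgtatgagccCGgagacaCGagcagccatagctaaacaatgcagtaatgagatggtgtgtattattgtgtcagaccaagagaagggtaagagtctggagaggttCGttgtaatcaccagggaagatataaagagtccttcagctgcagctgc
Krtap8-1: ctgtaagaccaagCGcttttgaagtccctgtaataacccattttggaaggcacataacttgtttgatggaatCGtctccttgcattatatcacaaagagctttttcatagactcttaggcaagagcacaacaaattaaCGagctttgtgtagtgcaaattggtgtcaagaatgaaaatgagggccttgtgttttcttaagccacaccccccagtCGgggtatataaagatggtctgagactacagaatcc

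Most keratin-family promoters held few CpGs. In the window of 300 bases the median was 5 CpGs in 37 Krt promoters (range 2 to 21) and 2 in 51 Krtap promoters (range 0 to 9), against 14 in all 20084 promoters of the RefSeq table. No Krtap promoter reached 10 CpGs, and 10 of 51 (19.6%) had none, a share that was 4.40% over all promoters. Only 4 Krt promoters held 10 or more, those of Krt7 with 21, Krt18 with 17, Krt72 with 11 and Krt28 with 10, which is 10.8% of 37 against 57.9% of all. The TATA box motif TATAAA, searched on both strands, was present in 19 of 37 Krt promoters (51.4%) and 42 of 51 Krtap promoters (82.4%), against 12.7% of all. On the strand of the gene it began 20 to 40 bases before the start in 13 Krt promoters (35.1%) and 31 Krtap promoters (60.8%), against 2.58% of all. Among the promoters printed above it began 26 bases before the start in Krt10, 31 in Krtap1-4, 27 in Krtap24-1 and 29 in Krtap8-1. GGGCGG, a core of Sp1 binding sites, was found on either strand in 2 Krt promoters (5.41%) and in no Krtap promoter, against 47.0% of all. These matches describe letters in the sequence and not binding.

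The measured start windows of the keratin family were methylated in all 4 libraries, though single CpGs within them could be low. A start window covered 1000 bp on each side of a start and its level was the percentage of methylated reads over all CpGs listed in it. Of the 88 member windows, 64 had at least 3 CpGs in every library, 29 of Krt and 35 of Krtap genes. Members without a start in the promoter table, such as Krt19, and windows with fewer CpGs, such as that of Krt8, were not measured. The median level of the 64 windows, averaged over the libraries, was 75.9%, with 44.3% at Krtap5-4 as the lowest and 90.5% at Krt10 as the highest. None lay under 30%, while 7138 of 14230 windows of all genes (50.2%) did, with a median of 29.8%. The number of CpGs in the promoter went along with this in all genes. Among windows whose promoter held 0 to 5 CpGs the median was 71.3% over 3799 windows of all genes and 76.1% over 47 member windows. With 6 to 9 CpGs it was 55.6% over 1609 windows and 75.4% over 13 member windows. With 10 or more it was 16.9% over 8822 windows, of which 72.9% lay under 30%, and the 4 member windows in this class had 65.0% to 76.9%. The upper quartile of all genes in this class was 31.7%, so all 4 CpG-rich member windows lay above it. The number of members in this class is too small for a test, and none was run.

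**Figure D1:**
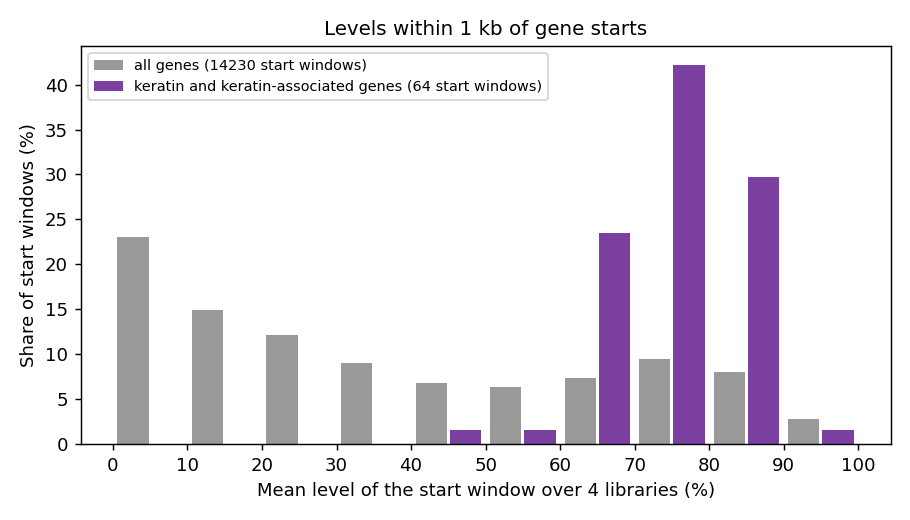
Share of start windows (y axis, percent of windows) by mean methylation level over the 4 libraries (x axis, percent, in steps of 10) for all genes (grey, 14230 windows) and for keratin and keratin-associated genes (purple, 64 windows). All genes are most frequent below 10%, with 23.0% of windows, whereas no member window lies below 40% and 42.2% of them lie between 70% and 80%.

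The 4 CpG-rich promoters were covered unequally. In the Krt7 promoter, whose product marks glandular and ductal epithelia, 12 CpGs were listed in at least 1 library, at levels between 40% and 80.0% over 5 to 7 reads each. Control 1 listed none of them, control 2 listed 4, FGR 1 listed 2 and FGR 2 listed 8. None of the 17 CpGs of the Krt18 promoter was listed in any library, so its window level rests on CpGs farther from the start. That window read 66.7% and 50.3% in the controls and 55.0% and 88.0% in FGR, and the groups overlapped. In the Krt28 promoter all 10 CpGs were listed, 8 in control 1, 10 in control 2, 2 in FGR 1 and none in FGR 2, at levels between 20% and 100%. In the Krt72 promoter 9 of 11 were listed, none in control 1, 8 in control 2, 7 in FGR 1 and 6 in FGR 2, at 37.5% to 100%. The Krt10 promoter has only 2 CpGs, and both were listed in the controls alone, at 85.7% and 71.4% in control 1 and 100% at both in control 2. In the Krtap24-1 promoter all 9 CpGs were listed in at least 1 library.

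Summed over the 37 Krt and 51 Krtap starts of the promoter table, neither family showed a dip at the start. Over the bins from 3000 bp before to 3000 bp after, the mean of the libraries lay between 62.8% and 78.7% for Krt and between 70.7% and 76.5% for Krtap, and the lowest Krt bin was 2000 to 2500 bp before the start. For all genes the level went from 73.8% at 2500 to 3000 bp before the start to 22.9% in the last 500 bp before it and 23.7% in the first 500 bp after it, and was back at 75.1% at 2500 to 3000 bp. Krt starts had 73.9% in the last 500 bp before the start and 76.9% in the first 500 bp after it. Krtap starts had 74.5% and 76.0%. All 4 libraries showed this: in the first 500 bp the Krt values were 79.7%, 74.2%, 76.7% and 76.8% and the Krtap values 75.4%, 79.6%, 71.7% and 77.4%, with control 1 first, then control 2, FGR 1 and last FGR 2, an order used throughout. FGR 1 was the lowest library at the starts of all genes, with 19.0% in those 500 bp against 23.8%, 25.9% and 26.1%, and it was also the lowest at Krtap starts, with 72.0% in the last 500 bp before and 71.7% in the first 500 bp after, but not at Krt starts.

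**Figure D2:**
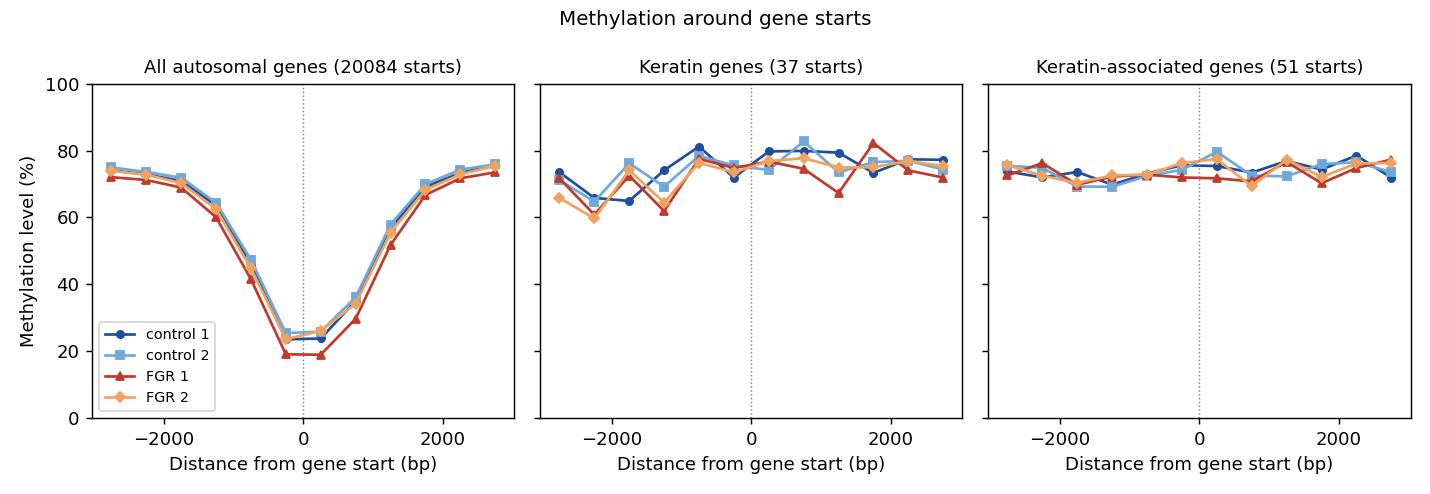
Methylation level (y axis, percent) in bins of 500 bp by distance from the gene start (x axis, base pairs, positive values inside the gene) for all autosomal genes, 37 Krt starts and 51 Krtap starts, with 1 line per library. All genes together dip at the start, to between 19.0% and 26.1% in the first 500 bp, and neither keratin panel does, where the lowest bin of any library is at 59.7%.

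Depth set the precision of single genes. The 4 tables listed between 7615146 (FGR 1) and 13578464 (FGR 2) cytosines with a mean coverage of 6.51 to 6.76 reads, and no cytosine with fewer than 5 reads was listed. Of 6884 CpGs that any library listed in member spans, 340 (4.94%) were in all 4, against 8.89% over the autosomes, so the libraries mostly listed different CpGs of the same gene. The 95% Wilson intervals of single library levels, which cover counting error only, had a half-width between 2.12 and 9.74 points in Krt spans and between 4.23 and 21.4 points in Krtap spans. The 11 Krtap genes that were not measured had 0 to 2 CpGs in their poorest library, and Krtap4-13 had none in any library. Many Krtap and hair keratin genes are near-identical copies of their neighbours, and the placement of reads that fit several copies is unknown here, so values of single copies are uncertain.

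The cells were checked by the methylation of marker genes. The 12 microglial marker genes had a median span level of 40.8%, from 13.4% at Olfml3 to 64.8% at Spi1, and of their 4 measured start windows those of P2ry12, Cx3cr1 and Sall1 were at 2.47%, 3.04% and 0%, while that of Aif1 was at 83.4%. The 5 measured epithelial markers (Cdh1, Epcam, Esrp1, Grhl2 and Trp63) had a median of 77.6%, and none of their start windows was measured. The medians were 62.2% for 8 neuronal, 74.8% for 6 astrocyte, 74.0% for 7 oligodendrocyte and 80.1% for 5 endothelial genes. Single spans overlapped between cell types. The oligodendrocyte spans ran from 6.65% at Olig1 to 83.5%, and the endothelial spans from 30.5% at Cldn5 to 84.5%. Starts of genes of other cell types were low too, such as Gad2 at 5.59% and Olig2 at 6.11%, so a low start does not by itself name the cell type here. RNA was not analysed here.

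Across whole spans the median of the family was close to that of all genes, with a narrower spread. The median member level was 74.3% (quartiles 69.4% and 77.9%), and that of all genes 74.2% (65.4% and 80.7%). No member lay under 30%, against 3.12% of all genes, and 3 of 98 (3.06%) lay under 50%, against 8.65%. Those 3 were Krt77 at 48.0%, Krtap5-4 at 49.2% and Krtap13-1 at 49.3%. The highest were Krt9, a keratin of footpad epidermis, at 86.7%, Krtap12-1 at 86.2% and the hair keratin Krt34 at 85.0%. By role the medians were 76.8% for 15 hair keratins, 74.8% for 7 inner root sheath keratins, 75.1% for 10 type I and 70.4% for 12 type II keratins of stratified epithelia, 71.9% for 6 simple epithelial keratins and 74.3% for 45 Krtap genes.

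No member passed the test between control and FGR. A span was called when its p from a quasi-binomial test, moderated across genes with limma and adjusted by Benjamini-Hochberg over all genes, was under 0.05 with a difference of at least 10 percentage points. This held for 0 of 98 members and for 0% of the 19868 genes, and the smallest adjusted p was 0.696, among members and among all genes. With the overdispersion of the test kept at 1 or above before its moderation, not after it, 77 genes (0.388%) were called and still 0 of 98 members, where Krt8 had the smallest quasi-binomial adjusted p of 0.179. At an unadjusted p under 0.05 there was 1 member (1.02%), Krt8, against 6.64% of all genes. The alternative test, limma fitted to log2 methylated over unmethylated reads, also called 0 members. Both FGR libraries lay below both controls in 25 of 98 members (25.5%), against 25.9% of all genes, and above both in 6 (6.12%), against 10.5%. The FGR mean was lower in 59 members (60.2%), against 63.5%, and the median difference was -1.51 points, against -1.26 over all genes. Each of these shares lies near that of all genes or under it. At the CpGs listed in all 4 libraries 48 members could be measured. None was called, against 0% of 15570 genes, and 1 had an unadjusted p under 0.05, against 4.64%. There 5 members had both FGR libraries below both controls (10.4%, against 19%) and 7 above (14.6%, against 14.1%).

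Summed over each family, the Krt spans read 74.7% and 73.3% in the controls and 72.3% and 72.7% in FGR. Both FGR libraries lay below both controls. The group means were 74.0 ± 0.977% and 72.5 ± 0.296% (SD, n = 2), a difference of -1.57 points with p = 0.3333 in the two-sided exact permutation test, the smallest p that 2 libraries against 2 allow. At CpGs listed in all 4 libraries the order turned, with 76.9% and 74.9% in the controls, 76.2% and 79.6% in FGR and a difference of 1.97 points (exact permutation p = 0.667). The Krtap spans read 75.5% and 74.9% in the controls against 72.1% and 74.2% in FGR, a difference of -2.00 points (exact permutation p = 0.3333). At CpGs listed in all 4 libraries the Krtap difference was -3.25 points (exact permutation p = 0.3333), with 78.1% and 79.4% in the controls and 74.1% and 76.8% in FGR. All autosomal CpGs together differed by -1.05 points, the same direction as both families over all listed CpGs.

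Simple epithelial keratins held the largest difference of the family, at Krt8, and differences in the other direction at Krt18 and Krt19, none past the test. Krt8, the type II partner of Krt18 in single-layered epithelia (chromosome 15, 101996711 to 102004342, minus strand), read 85.8% and 77.6% in the controls and 48.1% and 64.6% in FGR over 161 to 338 reads. Both FGR libraries lay below both controls. The group means were 81.7 ± 5.77% and 56.3 ± 11.7% (SD, n = 2). The difference was -25.4 points (quasi-binomial p = 0.0144, adjusted p = 0.696). Krt18 read 83.3% and 69.4% in the controls and 81.9% and 92.0% in FGR, a difference of 10.6 points with overlapping groups. In its first kb control 1 listed 2 CpGs at 68.8%, control 2 listed 21 at 47.1%, and neither FGR library listed any. At the 34 CpGs listed in at least 1 library of each group, with reads summed per group, the Krt18 difference was 0.0773 points. Krt19, a type I keratin of ducts and gut, read 49.8% and 58.0% against 57.9% and 74.1%, a difference of 12.1 points, again with overlap. At its 44 CpGs listed in both groups the difference was 1.65 points. Krt7 read 77.4% and 61.6% against 69.6% and 69.8%, so both FGR values lay between the controls. Krt20 of the gut lining and Krt23 differed by 2.36 and -0.791 points.

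The libraries listed different parts of Krt8. Low CpGs lay in the first kb after the start and in 2 further stretches. The first kb read 40%, 20%, 63.6% and 43.5% in the 4 libraries, over 2, 1, 2 and 7 CpGs. At 1.0 to 1.5 kb after the start every listed CpG was at 0%, with 1 CpG listed in control 1, none in control 2, 9 in FGR 1 and 4 in FGR 2. At 4.7 to 5.3 kb control 1 listed no CpG, control 2 read 45.7% over 7 CpGs, FGR 1 read 4.88% over 7 and FGR 2 read 20% over 9. These stretches held 16 of the 36 CpGs listed in FGR 1 and 13 of 55 in FGR 2, against 1 of 47 in control 1 and 7 of 29 in control 2. Outside both stretches, with the first kb still included, Krt8 read 87.1% and 86.5% in the controls and 81.0% and 77.7% in FGR, a difference of -7.46 points. The stretches were chosen after their values were seen. Only 2 CpGs of Krt8 were listed in all 4 libraries, too few for the test. At the 25 CpGs of 110 that were listed in at least 1 library of each group, with reads summed per group, control read 72.8% and FGR 70.7%, -2.12 points apart.

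**Figure D3:**
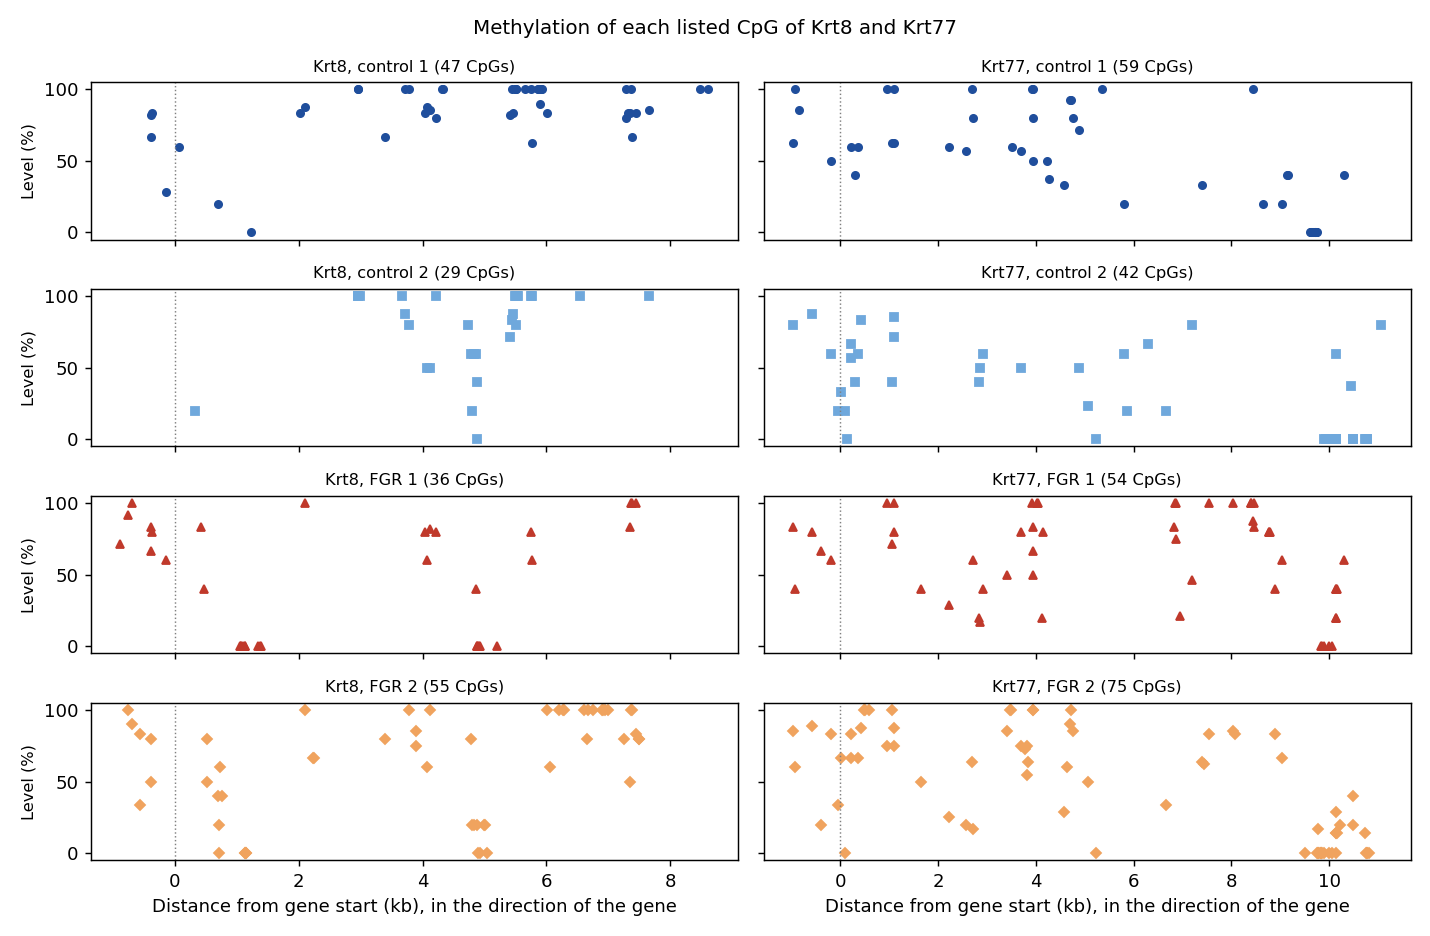
Methylation level (y axis, percent) of each CpG listed in a library by distance from the gene start (x axis, kilobases in the direction of the gene) for Krt8 and Krt77, with 1 panel per library and each point 1 CpG. In Krt8 all CpGs listed at 1.0 to 1.5 kb are at 0%, 13 of 14 such listings being in FGR, while at 4.7 to 5.3 kb control 1 lists none, control 2 reads 45.7%, FGR 1 4.88% and FGR 2 20%, and in Krt77 all libraries have a low stretch at about 10 kb.

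Stratified type II keratins included the least methylated member. Krt77, a type II keratin of the epidermis (chromosome 15, 101858731 to 101869706), read 43.8% and 36.6% in the controls and 60.4% and 51.2% in FGR. Both FGR libraries lay above both controls, with means of 40.2 ± 5.07% and 55.8 ± 6.51% (SD, n = 2). The difference was 15.6 points (quasi-binomial p = 0.0836, adjusted p = 0.782). Its 6 CpGs listed in all 4 libraries read 65.9% and 65.7% against 78.8% and 84.1%, also 15.6 points apart. That is the 1 member under an unadjusted p of 0.05 in that comparison (quasi-binomial p = 0.0402, adjusted p = 0.978). At the 52 CpGs listed in both groups, however, Krt77 was at 52.5% in control and 52.9% in FGR. The lowest part of the gene was its far end. At 9 to 10 kb after the start it read 4.64%, 0%, 11.5% and 7.14%, over 25, 2, 5 and 13 CpGs. Krt78, with the most reads of the group, read 74.6% and 70.7% against 64.9% and 67.1%, a difference of -6.68 points. Its RefSeq span reaches far upstream of the start in the promoter table, towards and into the flank of Krt8, so it is uncertain how much of this level belongs to Krt78. Both FGR values lay below both controls, but at the 10 CpGs listed in all 4 libraries both lay above, at 93.3% and 91.8% against 91.7% and 85.2%. Krt80 differed by -0.725 points. Of the 12 genes 5 had a higher and 7 a lower mean in FGR, against 63.5% lower over all genes.

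Among stratified type I keratins 3 of 10 were higher and 7 lower in FGR, against 63.5% lower over all genes. Krt16, a keratin induced in wounded epidermis, read 79.6% and 88.9% in the controls and 72.0% and 72.2% in FGR. Both FGR values lay below both controls, a difference of -12.2 points, and at the 10 CpGs listed in both groups the difference was 2.67 points. Krt24 read 68.6% and 65.5% against 85.1% and 74.4%, with both FGR values above, a difference of 12.7 points that was 3.12 at CpGs listed in both groups. Krt10, the partner of Krt1 in the upper epidermis, read 78.6% and 69.8% against 71.0% and 71.6%, with overlap. Krt12 of the cornea read 80.1% and 75.7% against 70.7% and 72.9%, with both FGR values below. Krt9 differed by -1.16 points.

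No hair or inner root sheath keratin passed the test. Of 15 hair keratins 3 were higher and 12 lower in FGR, against 63.5% lower over all genes. In 5 both FGR libraries lay below both controls and in none above, against 25.9% and 10.5% of all genes, and the median difference was -3.08 points, with no test on the group. Krt84, found in the hair cuticle and tongue, read 85.8% and 76.8% against 78.4% and 73.6%. Krt36 read 73.4% and 74.8% against 71.3% and 72.0%, and Krt34 read 89.6% and 82.4% against 82.5% and 85.7%. The groups overlapped in Krt84 and Krt34, and in Krt36 both FGR values lay below both controls, a difference of -2.47 points. Krt86, named for its size after its values were seen, had the largest difference of the group, -12.8 points. Of 7 inner root sheath keratins 3 were higher and 4 lower, against the same 63.5% lower over all genes. Krt72 read 76.8% and 75.1% against 77.9% and 73.3%, and Krt26 read 74.4% and 72.1% against 81.4% and 71.3%, both with overlapping groups. Of the remaining 3, Krt222 differed by -1.89 points and Krt90 by 0.137 points.

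Of 45 measured Krtap genes 20 were higher and 25 lower in FGR, against 63.5% lower over all genes. Both FGR libraries lay below both controls in 11 and above in 3, near or under the 25.9% and 10.5% of all genes. Krtap1-4, a high-sulfur protein of the hair cortex (chromosome 11, 99582549 to 99583677), read 75.6% and 83.7% in the controls and 55.0% and 65.1% in FGR over 20 to 192 reads. Both FGR values lay below both controls, with a difference of -19.6 points (quasi-binomial p = 0.0545, adjusted p = 0.759), and at the 15 CpGs listed in both groups the difference was -9.68 points. Its span overlaps that of Krtap1-5, and its start window, at 85.5% and 88.7% against 60% and 64.0%, was the 1 member window with an unadjusted p under 0.05 (quasi-binomial p = 0.0206, adjusted p = 0.809). That is 1 of 64 windows (1.56%), against 5.83% of 14230, and 0 were called, against 0%. Krtap10-4, which lies within Tspear together with Krtap10-10 and Krtap12-1, read 50% and 55.4% against 80.6% and 58.3%. Its difference of 16.8 points, with both FGR values above, was -0.549 points at the 9 CpGs listed in both groups. Krtap10-10 read 73.6% and 71.8% against 60% and 70.0%, both FGR values below, and at the 5 CpGs listed in both groups FGR was higher by 19.1 points.

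The deepest Krtap genes by chromosome give the scale of the rest. On chromosome 16 Krtap24-1 read 83.7% and 82.7% against 75.6% and 79.4%, and Krtap26-1 read 80.9% and 84.2% against 77.2% and 79.4%. In both genes the FGR values lay below the controls, with differences of -5.70 and -4.24 points. On chromosome 11 Krtap4-1 read 68.6% and 74.2% against 75% and 69.9%, and Krtap4-7 read 82.4% and 78.9% against 67.7% and 78.3%. Krtap4-1 overlapped, while in Krtap4-7 both FGR values lay below. On chromosome 1 Krtap28-13 read 78.5% and 69.6% against 76.8% and 84.7%, and on chromosome 7 Krtap5-3 read 63.0% and 62.5% against 65.2% and 57.9%, both with overlap. Krtap5-4 at 47.1% and 55.1% against 39.1% and 55.6%, Krtap13-1 at 55.0% and 42.9% against 46.7% and 52.8%, and Krtap4-2 at 62.9% and 47.2% against 60% and 53.3% were the least methylated Krtap genes. In each of these 3 the groups overlapped.

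**Figure D4:**
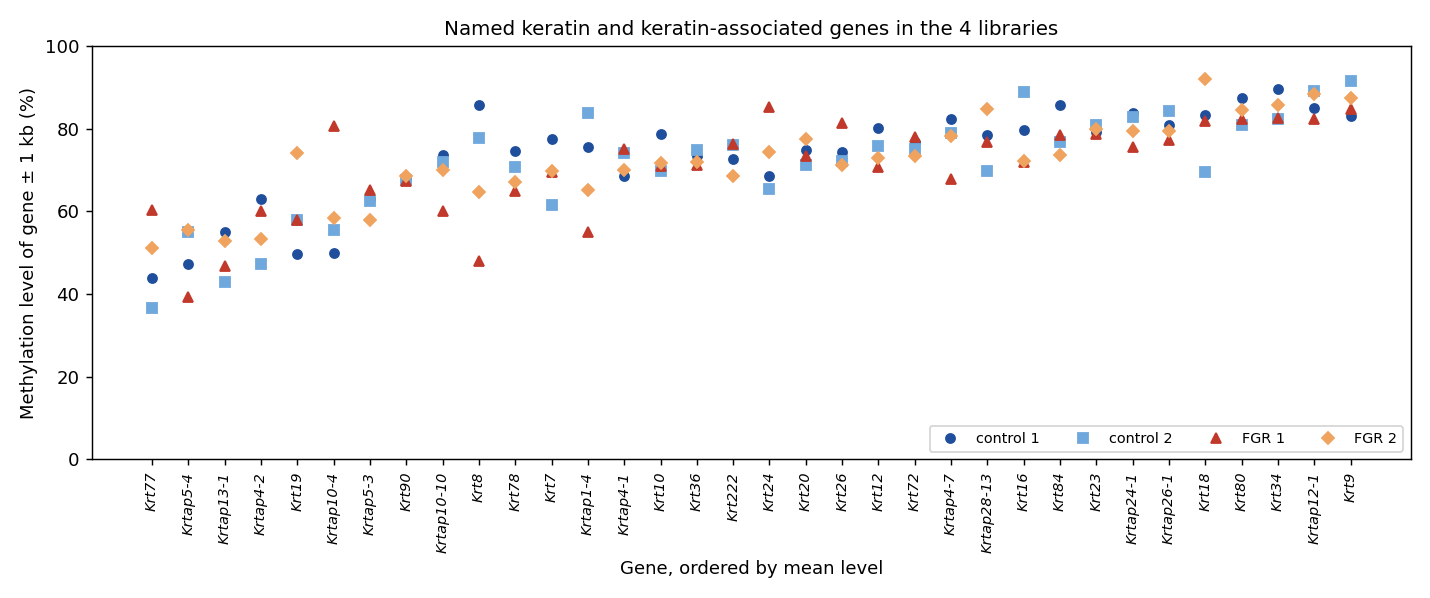
Methylation level of the gene with 1 kb on each side (y axis, percent) in each of the 4 libraries (points, circles and squares for control, triangles and diamonds for FGR) for the 34 named genes, ordered by mean level (x axis). In most genes the 4 points overlap between groups, and Krt8 has the widest gap, with FGR points at 48.1% and 64.6% under control points at 77.6% and 85.8%.

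Most of the larger differences were smaller when the groups were compared at the same CpGs. Of the 98 members 9 differed by 10 points or more (9.18%, against 14.2% of all genes): Krt8, Krt16, Krt18, Krt19, Krt24, Krt77, Krt86, Krtap1-4 and Krtap10-4. The median size over these 9 was 12.8 points at all listed CpGs and 1.65 points at CpGs listed in both groups, which were 256 of 724, and none of the 9 reached 10 points there. These 9 were picked by their size at all listed CpGs, so a smaller size elsewhere follows in part from the choice. Over all 98 members the median size was 4.62 points at all listed CpGs and 3.07 at CpGs listed in both groups, 74 kept their direction, and 6 reached 10 points at the latter, among them Krtap10-10 and Krt79. The comparison at CpGs listed in both groups sums reads per group, so it has no replicate error and no test. The differences at all listed CpGs weight the libraries of a group equally. The 2 sizes therefore differ in weighting as well as in the CpGs compared, and the share of each was not tested.

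**Figure D5:**
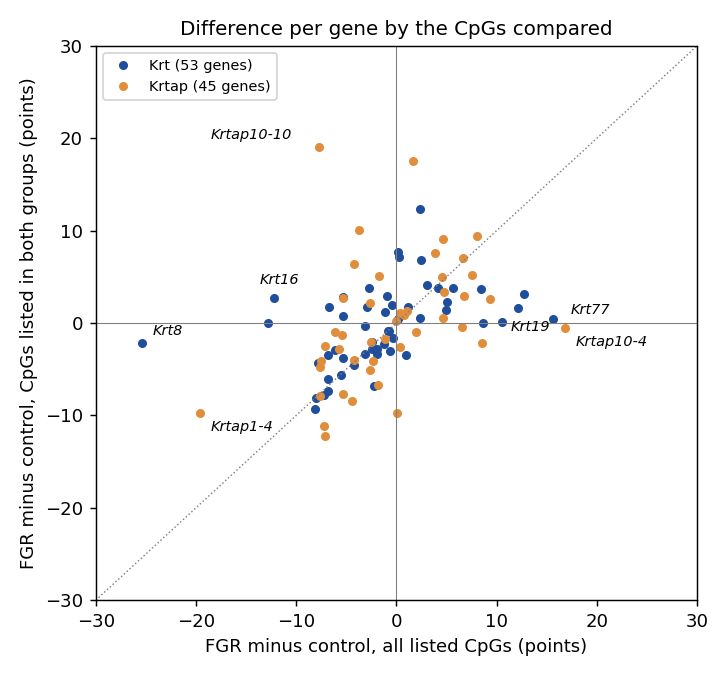
Difference in methylation level, FGR minus control in percentage points, at all listed CpGs (x axis) and at CpGs listed in at least 1 library of each group (y axis) for 53 Krt (blue) and 45 Krtap (orange) genes, with equality as the dotted line. Krt8 lies at -25.4 on the x axis and -2.12 on the y axis, and Krt77 at 15.6 and 0.410.

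Each gene cluster, taken as a whole interval with the sequence between genes, was set beside its flanks. The type I cluster on chromosome 11, an interval of 1037 kb, had a mean of 73.8%. Its 50 members include the Krtap genes that lie among the keratin genes there. The type II cluster on chromosome 15, 684 kb with 26 members, had 71.3%. In the 500 kb on either side of each the means were 74.6% and 72.2%. The Krtap cluster on chromosome 16, 960 kb with 24 members, read 70.4%, 70.5%, 70.1% and 70.7%, against 79.97%, 80.6%, 78.0% and 77.9% in its flanks, so all 4 libraries were lower inside. The interval of 130 kb on chromosome 7 that holds the 5 Krtap5 genes, counted with the sequence between them, read 70.0% and 73.9% in the controls and 64.0% and 64.2% in FGR. Both FGR values lay below both controls, a difference of -7.83 points that was -3.35 points at CpGs listed in all 4 libraries. Of its genes Krtap5-3 and Krtap5-4 were measured, and their spans had means of 62.2% and 49.2%, under the 68.0% of the interval. This interval was read off after the values were seen and has no test beyond the order of the 4 libraries. The 3 Krtap genes on chromosome 10 lay in 117 kb at 74.4%, against 78.0% in the flanks.

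Inside the spans, tiles of 1 kb located the low stretches. Of 219 member tiles 4 (1.83%) had a mean under 20%, against 1.93% of 550538 tiles, a similar share. The lowest lay in the annotated span of Krt78, in its uncertain upstream part (chr15:101984001-101985000) and read 0%, 0%, 5.88% and 3.16%. Counted from the Krt78 start of the promoter table, with bases before it negative, the tile ends at -29714 bp, on the side towards Krt8. Next came a tile at the upper end of the Krt19 span (chr11:100145001-100146000), with 8.70%, 4.29%, 3.77% and 9.09%. Krt19 has no start in the promoter table, so it is not among the start windows above. The neighbouring keratin genes Krt13 and Krt9 are on the minus strand, where the upper end of a gene is its start. If Krt19 shares that strand, this tile lies at or near its start, which would then be a low keratin start. The strand of Krt19 was not checked. The others were at the far ends of Krt77 (chr15:101859001-101860000), with 2.82%, 10.5%, 19.3% and 8.55%, and of Krt79 (chr15:101930001-101931000), with 15.2%, 31.7%, 8.70% and 20.3%. Each was at 31.7% or less in all 4 libraries, and the groups overlapped in Krt19, Krt77 and Krt79.

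No member tile was called (0 of 219), against 0.000182% of all tiles, and the smallest adjusted p of a member tile was 0.909. The number of calls over all tiles depended on the test: keeping the overdispersion at 1 or above before its moderation, not after it, called 338 tiles (0.0614%) and 66 start windows (0.464%), and still 0 of 219 member tiles and 0 of 64 member windows. At an unadjusted p under 0.05 there were 10 member tiles (4.57%, against 5.01%). The tile with the smallest p lay in Krt88 (chr15:101449001-101450000), with 94.4% and 78.3% in the controls and 52.6% and 57.5% in FGR (quasi-binomial p = 0.0111). Another lay at the lower end of the Krt19 span (chr11:100140001-100141000), where FGR was higher with 88.4% and 93.3% against 73.5% and 61.5%. A tile in the Krt78 span (chr15:101988001-101989000) read 61.1% and 31.9% in the controls and 0% and 20.7% in FGR. The groups did not overlap in these 3, as is usual for tiles picked by their p.

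No listed gene that works with keratins in epithelia passed the test, which called 0% of all 19868 genes. Of 33 listed partners, which include desmosomal proteins that anchor keratin filaments, cornified envelope proteins and hair and epidermal transcription factors, 32 were measured, 12 higher and 20 lower in FGR, against 63.5% lower over all genes. None was called, and 3 had an unadjusted p under 0.05, against 6.64% of all genes: Ovol1, an epithelial transcription factor, Pkp3, a desmosomal plaque protein, and Perp, a desmosomal membrane protein, with differences of -17.3, -14.2 and 21.6 points. Their median level was 69.9%, and the lowest were Hoxc13, a regulator of hair keratin genes, at 11.3%, and Sfn, an epithelial 14-3-3 protein, at 22.7%. Of 16 other intermediate filament genes none was called, the median level was 65.9%, and 3 had an unadjusted p under 0.05, against 6.64% of all genes. They were Nes and the nuclear lamina genes Lmnb2 and Lmnb1, the latter with differences of -21.1 and -10.5 points (quasi-binomial adjusted p = 0.697 and 0.698). Nes, the neural progenitor filament nestin, read 68.1% and 78.8% against 39.7% and 46.3%, with both FGR values below both controls and a difference of -30.5 points (quasi-binomial p = 0.00662, adjusted p = 0.696). The differences of the partner and filament genes were taken over all listed CpGs. They were not compared at CpGs listed in both groups. The 8 measured start windows of the other intermediate filament genes had a median of 33.0%, and 4 lay under 30%. They ran from 2.16% at Vim, the filament protein vimentin, to 68.1% at Bfsp2. The lowest measured keratin start window was that of Krtap5-4 at 44.3%.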

How the data were processed

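Genomic DNA of hippocampal microglia was bisulfite converted and sequenced in 2 control and 2 FGR libraries. Trim Galore 0.6.5, methylKit 1.28.0, Bismark and mm10 are named in the submitters' processing notes, without parameters. Per the file headers, the deposited tables hold for each CpG cytosine and strand the coverage, a count of reads, and the percent of them with C and with T. Every listed cytosine had at least 5 reads. Bisulfite does not tell methylated from hydroxymethylated cytosine.

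Methylated reads, coverage times percent, were whole within 0.02 for all cytosines. Strands were summed, the 0.1% of CpGs with the highest coverage in each library were left out, and the level of a region is its methylated reads over its reads. CpGs on 1 read are not independent, so intervals can be too narrow. All 112423 CpGs listed in RefSeq promoter windows sat on a CG. Gene spans, start windows and tiles were fitted over the whole genome with a quasi-binomial model, group as the only term, and its overdispersion was moderated along coverage by squeezeVar from limma 3.58.1 (R 4.3.3) and then kept at 1 or above. The test was also run on simulated reads with the coverage of the gene spans. That simulation did not model libraries that list different CpGs, so it does not measure the power of the test here. Python 3.11.15 and scipy 1.17.1 were used otherwise.

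Named genes are, per role or Krtap chromosome, the 2 with the most reads in their shallowest library, all simple epithelial keratins, the 4 smallest p in each direction and the 4 lowest and 3 highest levels, 34 in all. Members, lists and rules were chosen with earlier results of these data known. Alternatives were the CpGs listed in all 4 libraries, other filters, windows and flanks, limma, a replicate block, leaving out each library and, chosen after seeing the data, the overdispersion kept at 1 before moderation.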

Additional observations from a re-analysis of the deposited data

How the results depend on the processing

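The number of called members was 0 under every alternative run, for spans, start windows and tiles. The number of called gene spans was 0 too, except with the overdispersion kept at 1 before moderation, an alternative chosen after seeing the data, which called 77. Members with an unadjusted p under 0.05 numbered 0 to 2 among spans over these alternatives. In the main fit it was 1 member (1.02%), against 6.64% of all genes. Apart from the replicate block below, the alternatives are given without their counts over all genes, so this range is not a result about the members. The Krt difference was -1.57 points and changed to 1.97 at CpGs listed in all 4 libraries, and leaving out 1 library gave -2.26 to -0.879. The Krtap difference of -2.00 points was -3.25 at CpGs listed in all 4 libraries and -0.0508 with 10 reads per CpG, and leaving out 1 library gave -3.04 to -0.953. The cause was not tested. The labels do not say whether same-numbered libraries were paired. Deviations from the group means of same-numbered libraries correlated at 0.0259, which with 2 libraries per group cannot exclude a pairing. A fit with the replicate number as a block called 0 of 98 member spans and 0 gene spans. That fit had 2 members and 1525 genes at an unadjusted p under 0.05, against 1 and 1319 without the block. Named genes, none of them called, changed sign in 8 of 20 at CpGs listed in all 4 libraries, in 8 of 34 at CpGs listed in both groups, an alternative chosen after seeing the data, in 3 of 23 without flanks, in 3 of 13 with 10 reads per CpG, and in 5 to 8 of 34 when 1 library was left out. Listed CpGs have 5 reads or more and 4.94% of member CpGs are listed in all libraries, and the median half-width of the 95% Wilson interval of 1 library was 4.97 points in Krt and 9.18 points in Krtap spans, which limits what single libraries can show.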
